A study of Mus musculus with 4 samples.

Results

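The transcription factors that set and drive the muscle programme were followed in C2C12 myoblasts, a mouse line derived from satellite cells of thigh muscle. The 9 factors were Myod1, Myf5, Myog, Mef2a, Mef2c, Mef2d, Pax7, Six4 and Msc. They were chosen by name, with earlier results of these data known, and found on the array through the RefSeq identifiers of its probes. They had 11 probes among the 39429 gene probes of the array, 1 for each factor except Mef2a and Mef2d, which had 2 each. The palmitate cultures were proliferating myoblasts kept for 48 h in DMEM with 5% FBS and palmitate at 0.1 mmol/l. The control cultures were kept in the same medium with matching amounts of ethanol and fatty acid-free bovine serum albumin, and the source label of the control channel names another medium, with horse serum, that the treatment protocol does not. Each of 4 two-colour arrays, all on 1 slide, carried RNA of 1 palmitate culture in the red dye (Cy5) and of 1 control culture in the green dye (Cy3). The dyes were never swapped, so dye and palmitate cannot be told apart. The cells are 1 line, and nothing in the labels says that the 4 cultures of a group were independent experiments, so the p-values below measure the spread between these arrays, which may be technical.

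Myod1 and Myf5 are basic helix-loop-helix factors that commit cells to the muscle lineage. They bind E-boxes in DNA as dimers with E-proteins, and Myog, of the same family, acts later, when myoblasts leave the cell cycle and differentiate. Mef2 proteins are MADS-box factors that act with them on muscle genes, Six4 is a homeobox factor that binds MEF3 sites, Pax7 marks satellite cells, and Msc (musculin) is a helix-loop-helix repressor of the programme.

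These inputs meet at the promoter of Myog, which is shown because in the mouse it is known to be driven through E-boxes, a MEF2 site and a MEF3 site. The 250 bases before the start of Myog lie at chr1:134289754-134290003 on the plus strand (RefSeq, GRCm38.p6). Capitals mark the E-boxes (CANNTG) and the MEF3 site (TCAGGTT), searched on both strands.
Myog promoter: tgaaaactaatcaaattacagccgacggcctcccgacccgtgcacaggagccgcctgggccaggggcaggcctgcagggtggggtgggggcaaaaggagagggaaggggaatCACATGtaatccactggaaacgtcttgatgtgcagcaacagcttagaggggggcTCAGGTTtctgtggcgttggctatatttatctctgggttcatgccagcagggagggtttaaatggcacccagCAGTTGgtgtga
The E-box CACATG spans positions -138 to -133 before the start, the MEF3 site -84 to -78, and the E-box CAGTTG -12 to -7, with no overlap between them. An E-box was present in 66.2% of the 32851 mouse promoter windows of this length and a MEF3 site in 3.49%. The CAGCTG form of the E-box (13% of windows) and the full consensus of the MEF2 site (2.92%) had no match here, which says only that those exact letters are not in this window. Of the 9 factors, 7 had promoter windows in the table, 10 windows in all, and MEF3 matches were also present in 1 of the 3 windows of Mef2c and 1 of the 2 windows of Six4.

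Across the arrays 61.9 to 70.7% of probes were well above background in the palmitate channel and 57.6 to 64.0% in the control channel, and the 24169 probes that reached this on each of the 4 arrays in the palmitate channel, the control channel or both were tested. Replicate 1 stood apart: over all tested probes its log2 ratios correlated with the mean of the other arrays at r = -0.08, whereas the pairs among replicates 2, 3 and 4 correlated at 0.68 to 0.77 (across probes, which are not independent replicates). No probe passed an adjusted p of 0.05 with all 4 arrays, or without replicate 2, 3 or 4 (limma, Benjamini-Hochberg). Without replicate 1, 4352 of 24165 passed, and member values are therefore given with and without that array. Since replicate 1 was set apart by these same ratios, the p-values and calls without it are descriptions and no support. All 9 myoblast markers, among them Des, Cdh15, Itga7 and Ncam1, were well above background on every array in both channels. Of 7 markers of differentiated muscle cells, 6 were above background on every array in the palmitate channel and 5 in the control channel, with Ckm, the muscle creatine kinase, on 3 palmitate and 1 control array. Of 9 adipocyte markers, 4 were above background on all arrays in the palmitate channel and 3 in the control channel, and Adipoq, Plin1, Lep, Retn and Cfd were on none in either. Of 6 leukocyte markers, 3 in the palmitate channel and 4 in the control channel were also above background on every array. Of 7 fibro-adipogenic progenitor markers, 5 were above background on all arrays in either channel. Their summed intensity was 82367 to 131370 in palmitate cultures against 66983 to 81105 in control cultures. Of the 5 tested, which are those summed, 1 was higher at an unadjusted p under 0.05 (limma), where 10.8% of all tested genes were. At an adjusted p of 0.05 it was 0 of the 5. Of 7 endothelial markers 2 and of 7 neuron and Schwann cell markers 4 were above background on all arrays in either channel. The sums of the 4 tested adipocyte markers did not overlap either (2100 to 2651 in palmitate against 2002 to 2056 in control cultures). Among these, Cidec passed the filter through the palmitate channel alone (above background on 4 palmitate and 0 control arrays), so the adipocyte sum is no support. Levels of single probes did not overlap for 12.1% of all probes. The sums of the tested myoblast, differentiated muscle, endothelial, leukocyte and neuronal markers overlapped between the groups. The part of these markers in the values below was not tested.

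All 11 probes of the myogenic factors passed the filter on dim signals. None passed an adjusted p of 0.05 (limma), with adjusted p-values of 0.135 to 0.865, and the background was 0% of 24169 probes. The methods' t-test with the same adjustment passed 0 of the 11 as well. At an unadjusted p under 0.05 there were 3 probes with a mean log2 ratio of palmitate over control above 0 (Myog, Mef2a and Myod1, against 10.8% of all probes) and 1 below 0 (the dimmer Mef2a probe, against 11.1% of all probes). The mean was above 0 for the brighter or only probe of 9 of 9 factors, against 50.2% of all tested genes, although Pax7 lay below 0 with median centring in place of loess and Mef2c, Pax7 and Msc did with a 75th percentile shift of each channel, and Six4 did without replicate 1. Mef2c and Pax7 passed the filter through the palmitate channel alone, so their direction is no support. The other 7 factors had 7 means above 0 by the brighter or only probe, while the dimmer Mef2a and Mef2d probes averaged -0.32 and -0.04. All factors were read on the same 4 arrays and were chosen with earlier results of these data known, so these counts are descriptions and no support. The median log2 ratio was 0.24 over the 7 factors without Mef2c and Pax7, 0.21 over all 9 and 0.00 over all tested genes. On single arrays the median over the 9 factors was 0.03, 0.23, 0.39 and 0.13 in replicates 1 to 4, with 5, 8, 9 and 7 factors above 0, so replicate 3 held the highest values as a whole. The ratio was above 0 on all 4 arrays for 4 probes, where 15.7% of all probes had this. They were those of Myod1, Myog and Mef2c and the brighter Mef2a probe, and Mef2c passed the filter through the palmitate channel alone. This count is likewise a description and no support. Palmitate and control levels overlapped for each of the 11 probes, while 12.1% of all probes had levels that did not overlap. In RNA of whole cultures, fewer cells with a transcript and less transcript per cell cannot be told apart.

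**Figure D1:**
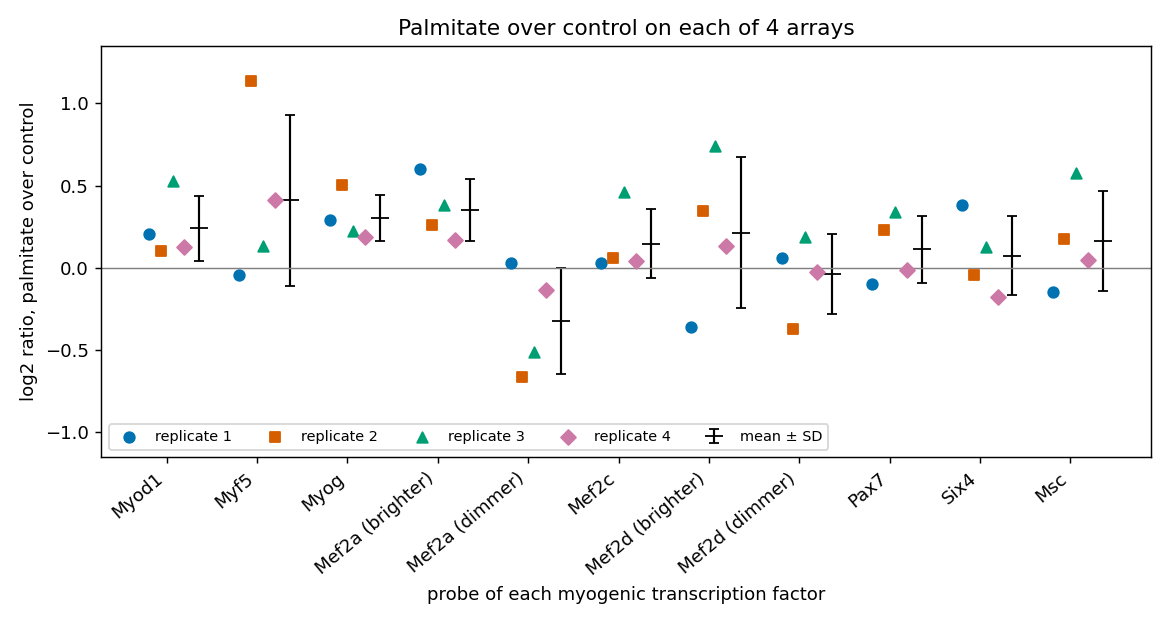
Log2 ratio of palmitate over control (vertical axis) for each of the 11 probes of the 9 myogenic factors, with 1 point per array and the mean ± SD over 4 arrays in black. The points of Myod1, Myog, Mef2c and the brighter Mef2a probe all lie above 0, and Myf5 in replicate 2 is the highest point at 1.14.

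Myod1, the factor that can turn fibroblasts into muscle cells, had normalized log2 levels of 10.41, 10.71, 10.93 and 10.56 in palmitate cultures (replicates 1 to 4), against 10.21, 10.61, 10.40 and 10.44 in control cultures. Palmitate was higher on each array, and the groups overlapped, since the control culture of replicate 2 lay above the palmitate cultures of replicates 1 and 4. The log2 ratios were 0.21, 0.10, 0.53 and 0.13, with replicate 3 highest. The mean of 0.24 ± 0.20 (SD, n = 4 arrays) had an unadjusted p of 0.049 and an adjusted p of 0.227 in limma. With the sign of each array's ratio flipped in all combinations (exact test, two-sided) p was 0.125, the smallest that 4 arrays can give. The mean was 0.25 without replicate 1 (adjusted p = 0.167, limma) and 0.15 without replicate 3 (adjusted p = 0.514).

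Myf5, which is switched on with Myod1 in proliferating myoblasts, had levels of 9.14, 9.80, 9.54 and 9.51 in palmitate cultures and 9.18, 8.67, 9.41 and 9.09 in control cultures. Replicate 2 held both the highest palmitate and the lowest control level. The log2 ratios were -0.04, 1.14, 0.13 and 0.42, which gave the highest mean of the 9 factors and also the widest spread (0.41 ± 0.52, SD, n = 4, adjusted p = 0.272, limma). The ratio was above 0 on 3 of 4 arrays. Without replicate 2 the mean was 0.17, and without replicate 1 it was 0.56 (adjusted p = 0.0752, limma).

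Myog, the factor of terminal differentiation, had the tightest ratios of all the member probes. Its levels were 9.55, 9.82, 9.85 and 9.62 in palmitate cultures, against 9.26, 9.32, 9.62 and 9.43 in control cultures. Each palmitate culture was above its own control, but the control of replicate 3 was level with the palmitate culture of replicate 4 and exceeded that of replicate 1. The log2 ratios of 0.29, 0.50, 0.23 and 0.19 averaged 0.30 ± 0.14 (SD, n = 4), a 1.23-fold difference (unadjusted p = 0.0122, adjusted p = 0.141, limma). It was 0.23 to 0.34 with any 1 array left out, and without replicate 1 the adjusted p was 0.0786.

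**Figure D2:**
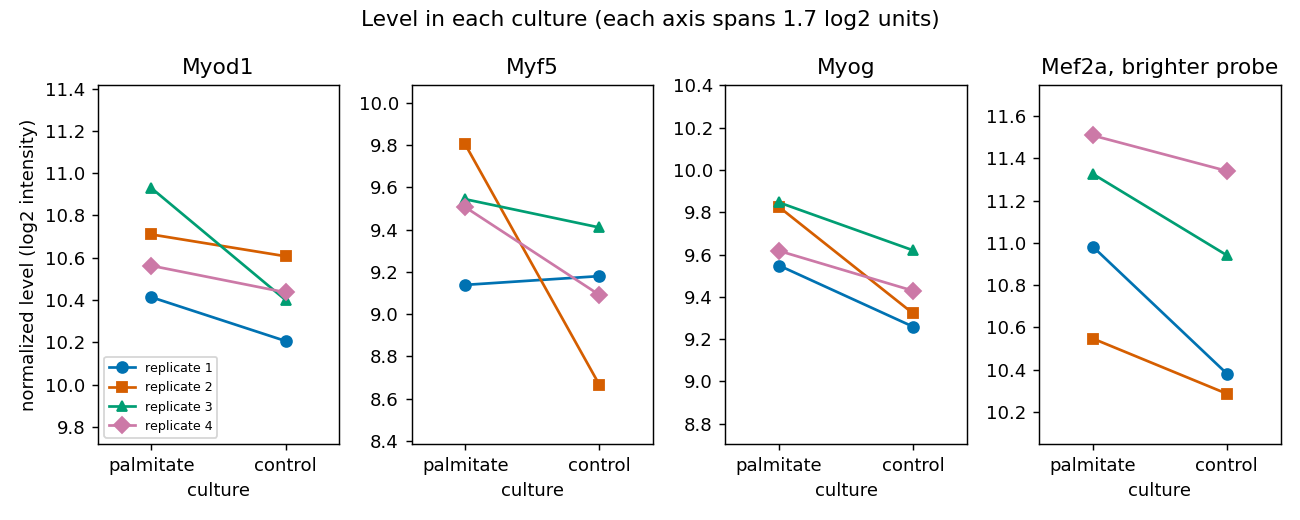
Normalized log2 intensity of Myod1, Myf5, Myog and the brighter Mef2a probe in the palmitate (left) and control (right) culture of each array, joined by a line. Myod1, Myog and Mef2a were higher with palmitate on each array, Myf5 on 3 of 4, and the groups overlap in each panel.

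The probes of Myod1, Myf5 and Myog were printed 10 times on each array, which sets the scatter of a spot against the scatter between arrays. For Myf5 the 10 spots had an SD of 0.04 to 0.08 within an array, against 0.52 between arrays. In replicate 2 its spots ran from 1.03 to 1.24, and in replicate 1 from -0.16 to 0.03, so the spread between arrays exceeded the spread between spots. For Myod1 the SD within arrays was 0.03 to 0.07, against 0.20 between arrays, and for Myog it was 0.02 to 0.07, against 0.14. Spots of 1 array share their labelled RNA and were averaged before any test.

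**Figure D3:**
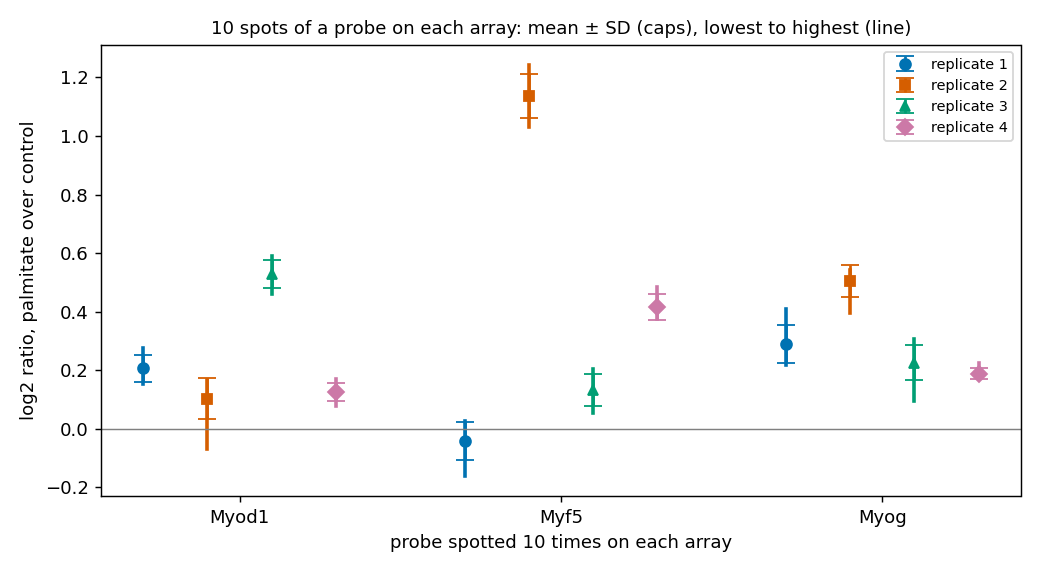
Log2 ratio of palmitate over control for the probes printed 10 times per array, with the mean and SD of the 10 spots (marker and caps) and their lowest to highest value (line). The Myf5 spots of replicate 2 (1.03 to 1.24) lie clear of those of the other arrays.

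The Mef2 factors were less uniform. Mef2a, a widely expressed member of the family, had 2 probes that went opposite ways. The brighter probe gave levels of 10.98, 10.55, 11.33 and 11.51 in palmitate cultures and 10.38, 10.29, 10.94 and 11.34 in control cultures, higher with palmitate on each array. Its log2 ratios of 0.60, 0.26, 0.39 and 0.17 averaged 0.35 ± 0.19 (SD, n = 4, unadjusted p = 0.00978, adjusted p = 0.135, limma), the lowest adjusted p of the members, and 0.27 without replicate 1 (adjusted p = 0.0846). The dimmer probe gave levels of 8.28, 7.56, 7.81 and 8.28 in palmitate cultures and 8.26, 8.22, 8.32 and 8.41 in control cultures. Its ratios of 0.03, -0.67, -0.51 and -0.14 averaged -0.32 ± 0.32 (SD, n = 4, adjusted p = 0.226, limma), below 0 on 3 of 4 arrays. The brighter minus the dimmer ratio was 0.57, 0.93, 0.90 and 0.30, above 0 on 4 of 4 arrays with a mean of 0.68 ± 0.30 (SD, n = 4, exact sign-flip p = 0.125, two-sided). Without replicate 1 the dimmer probe was the 1 member probe that passed, at -0.44 (adjusted p = 0.0479, limma, with 0.0479 to 0.669 over the 4 fits that leave out an array, and 0.108 to 0.990 over the other alternatives that use loess or another scaling). In that fit 9.23% of all probes were called lower and 8.78% higher. The direction of Mef2a therefore depends on the probe, and the parts of the transcript the probes cover are not given in the sources used here.

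Mef2c, the Mef2 factor best known from heart and skeletal muscle development, was dim. It was well above background in 4 of 4 palmitate cultures and in 1 of 4 control cultures, that of replicate 2. Levels were 7.16, 7.50, 7.64 and 7.29 in palmitate cultures and 7.13, 7.44, 7.18 and 7.25 in control cultures. The log2 ratios were 0.03, 0.06, 0.46 and 0.04, above 0 on 4 of 4 arrays but near 0 on all except replicate 3 (0.15 ± 0.21, SD, n = 4, adjusted p = 0.427, limma), with a mean of 0.19 without replicate 1 and 0.04 without replicate 3. Computed from the scanner software's processed signals, which differ in both the background and the dye step, the ratios were 0.08, 0.54, 2.31 and 1.92 and their mean 1.21 (adjusted p = 0.135, limma). With only the background step changed, the mean was 0.31 without correction and 0.23 with the smaller normexp offset.

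Mef2d, the third family member on the list, had a brighter probe with levels of 7.87, 8.47, 8.97 and 8.57 in palmitate cultures and 8.23, 8.12, 8.23 and 8.44 in control cultures. Its ratios of -0.36, 0.34, 0.74 and 0.13 averaged 0.21 ± 0.46 (SD, n = 4, adjusted p = 0.50, limma). Replicate 1 was the 1 array below 0, and without it the mean was 0.41 (adjusted p = 0.0717, limma), while without replicate 3 it was 0.04. The dimmer probe had ratios of 0.06, -0.37, 0.19 and -0.02 (-0.04 ± 0.24, SD, n = 4, adjusted p = 0.865, limma), and -0.07 on average without replicate 1. The difference between the 2 Mef2d probes, 0.25 ± 0.51 (SD, n = 4, exact sign-flip p = 0.375, two-sided), was smaller than its spread.

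Pax7, the paired-box factor of satellite cells, was close to background. It was well above background in 4 of 4 palmitate cultures and 2 of 4 control cultures, those of replicates 1 and 4. Levels were 7.30, 7.25, 7.48 and 7.32 in palmitate cultures, against 7.40, 7.02, 7.14 and 7.33 in control cultures. The log2 ratios were -0.10, 0.23, 0.34 and -0.01, with 2 arrays on each side of 0 (0.11 ± 0.20, SD, n = 4, adjusted p = 0.533, limma). The mean was 0.19 without replicate 1 and 0.04 without replicate 3, and the 2 arrays above 0 were the 2 whose control culture was not well above background.

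Six4, the homeobox factor that binds MEF3 sites, had levels of 9.89, 9.56, 9.75 and 9.65 in palmitate cultures and 9.50, 9.60, 9.62 and 9.82 in control cultures. The ratios of 0.38, -0.04, 0.13 and -0.17 averaged 0.07 ± 0.24 (SD, n = 4, adjusted p = 0.720, limma), the lowest mean among the 9 factors, and without replicate 1 the mean was -0.03. Msc, the repressor, had levels of 7.42, 7.82, 8.12 and 7.67 in palmitate cultures and 7.57, 7.64, 7.54 and 7.62 in control cultures. Its ratios of -0.15, 0.17, 0.58 and 0.05 averaged 0.16 ± 0.31 (SD, n = 4, adjusted p = 0.483, limma), 0.27 without replicate 1 (adjusted p = 0.171) and 0.03 without replicate 3 (adjusted p = 0.929). Its palmitate levels spanned more than its control levels, and replicate 3 was again the highest.

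**Figure D4:**
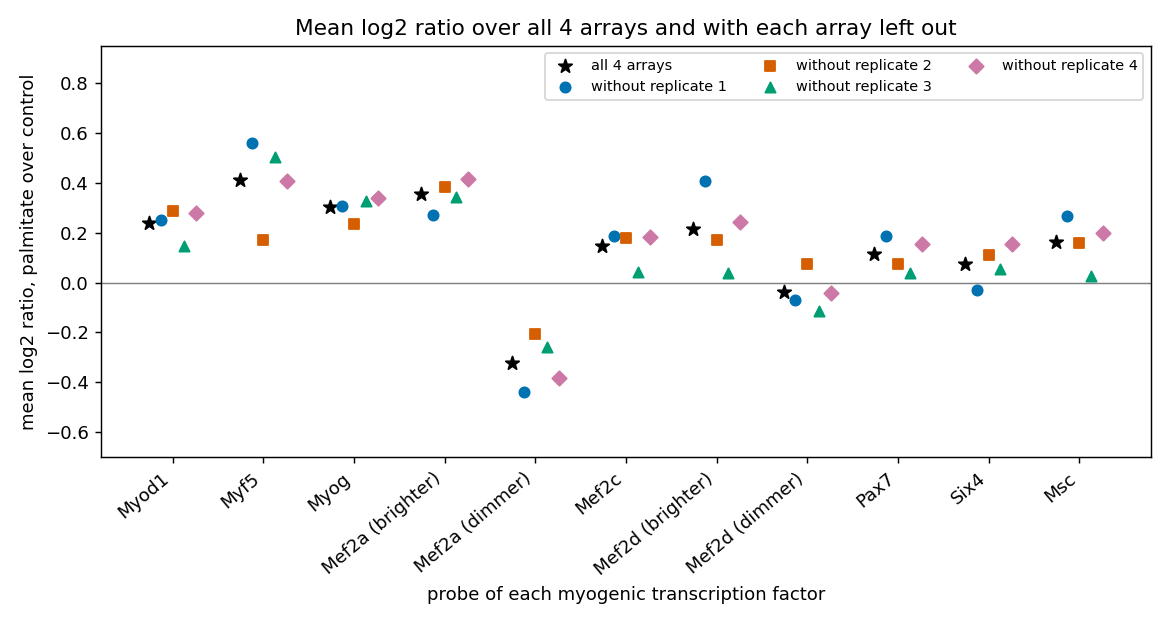
Mean log2 ratio of palmitate over control for each of the 11 probes over all 4 arrays (star) and with each array left out in turn. Only the dimmer Mef2d probe and Six4 change sign, to 0.07 without replicate 2 and to -0.03 without replicate 1.

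The genes around the factors were read from 6 lists, each gene by its brightest probe, and no gene of any list passed an adjusted p of 0.05 in limma with all arrays. At an unadjusted p under 0.05, 10.8% of all tested genes were higher and 13.4% lower. Of 10 relatives of the factors 4 were tested, Pax3, Six5 and Scx among them, since Myf6, Mef2b, Six2, Six3, Six6 and Tcf21 did not pass the filter. None was higher at that level and 1 was lower, Scx, a helix-loop-helix factor of tendon, at -0.35 ± 0.21 (SD, n = 4). With median centring in place of loess Scx was at 0.01, where the median of all probes was 0.18. Without replicate 1 it averaged -0.42 and was the 1 relative that passed (adjusted p = 0.0355, limma), where 9.23% of all probes passed as lower. Pax3, the paired-box relative of Pax7, averaged -0.14 and Six5 averaged -0.11.

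Of 31 partners of the factors 27 were tested, with 5 higher and 3 lower at that level and a median log2 ratio of 0.03. Without replicate 1, 3 passed an adjusted p of 0.05 as higher and 3 as lower, where 8.78% and 9.23% of all probes did. The E-proteins, with which Myod1, Myf5 and Myog pair, had brighter-probe means of 0.31 (Tcf3), 0.22 (Tcf12) and 0.19 (Tcf4). For Tcf3 the ratios were -0.10, 0.49, 0.46 and 0.37, and its second probe averaged 0.45, and without replicate 1 the first averaged 0.44 (adjusted p = 0.0194, limma), whereas the second probe of Tcf12 averaged -0.17. The smallest unadjusted p of this list belonged to Klf4, a zinc-finger factor, at 0.88 ± 0.58 (SD, n = 4), and to Eya1, a coactivator of homeobox factors such as Six4, at 0.45 ± 0.23 (SD, n = 4), both with an adjusted p of 0.125 in limma. The Klf4 ratios were 0.04, 1.32, 0.96 and 1.22, with replicate 1 low, and the Eya1 ratios were 0.75, 0.24, 0.50 and 0.29, with replicate 1 high. Without replicate 1 Klf4 averaged 1.16 (adjusted p = 0.00211, limma) and Eya1 averaged 0.35 (adjusted p = 0.0501).

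Of 37 inhibitors 34 were tested, with 3 higher and 6 lower at that level and a median of -0.02. The Id proteins, which bind E-proteins and lack a DNA-binding region, averaged -0.28 (Id1), -0.07 (Id2) and -0.06 (Id3). Each had an adjusted p of 0.241 or more in limma. With median centring in place of loess they were at 0.05, 0.22 and 0.24, where the median of all probes was 0.18. Hes1, a Notch-responsive repressor, had ratios of -0.21, -0.80, -0.71 and -0.61, below 0 on 4 of 4 arrays (-0.58 ± 0.26, SD, n = 4, adjusted p = 0.118, limma). Zeb1, which occupies E-boxes in competition with the myogenic factors, had ratios of 0.36, 0.78, 0.61 and 0.27, above 0 on 4 of 4 arrays (0.50 ± 0.23, SD, n = 4, adjusted p = 0.118, limma). Without replicate 1, 3 inhibitors passed as higher and 5 as lower, where 8.78% and 9.23% of all probes did. Among them were Hes1 at -0.71 (adjusted p = 0.00586, limma) and Zeb1 at 0.55 (adjusted p = 0.0231).

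Of 29 coactivators and signalling enzymes 28 were tested, with 1 higher and 2 lower and a median of -0.06. Ppp3ca, the catalytic subunit of calcineurin, had ratios of 0.38, 0.54, 0.44 and 0.48 (0.46 ± 0.07, SD, n = 4, adjusted p = 0.118, limma). Without replicate 1 it averaged 0.49 (adjusted p = 0.0143, limma). It was then the 1 coactivator that passed as higher, with 3 lower, where 8.78% and 9.23% of all probes did. Mapk12, a p38 kinase of muscle, had -0.50, -0.53, -0.16 and -0.27 (-0.37 ± 0.18, SD, n = 4, adjusted p = 0.130). The histone acetyltransferases averaged -0.12 (Ep300), 0.06 (Crebbp) and -0.02 (Kat2b), with SDs of 0.12, 0.34 and 0.27 (n = 4 each).

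Of 40 targets of Myod1 and Myog 39 were on the array and 36 were tested, with 4 higher and 1 lower and a median of 0.01. Myh3, the embryonic myosin heavy chain, had ratios of 0.56, 0.13, 0.26 and 0.32 (0.32 ± 0.18, SD, n = 4, adjusted p = 0.150, limma), and its second probe averaged 0.27. Without replicate 1 it averaged 0.23 (adjusted p = 0.119, limma). In that fit 1 target passed as higher and 1 as lower, where 8.78% and 9.23% of all probes did. Tnnt1, slow skeletal troponin T, had 0.46, 0.50, 0.06 and 0.23 (0.31 ± 0.20, SD, n = 4, adjusted p = 0.162). Des, the muscle intermediate filament, averaged -0.13 ± 0.36 (SD, n = 4), and the acetylcholine receptor subunit Chrnd averaged -0.17 ± 0.21 (SD, n = 4). Chrna1, another subunit, averaged 0.30 ± 0.13 over 3 arrays, since its spot on replicate 2 was left out as non-uniform, and its second probe averaged -0.17.

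Of 25 satellite cell genes 22 were tested, with 1 higher and 4 lower and a median of 0.03. Fst (follistatin), which binds and blocks myostatin, had ratios of -0.52, -0.94, -0.97 and -0.53, below 0 on 4 of 4 arrays (-0.74 ± 0.25, SD, n = 4, adjusted p = 0.118, limma). Sdc4, a heparan sulfate proteoglycan of satellite cells, had -0.40, -0.53, -0.29 and -0.56 (-0.44 ± 0.13, SD, n = 4, adjusted p = 0.118). Without replicate 1 they averaged -0.81 (adjusted p = 0.00749, limma) and -0.46 (adjusted p = 0.0226). In that fit 1 gene of the list passed as higher and 3 as lower, where 8.78% and 9.23% of all probes did. Cdh15 (M-cadherin) and Itga7, the laminin receptor of muscle, averaged 0.01 and 0.07, with 2 arrays on each side of 0. The genes with the smallest p of each list were picked for their values, so their sizes are descriptions.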

How the data were processed

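RNA (1 μg) of 4 palmitate and 4 control cultures was labelled and hybridized by the authors to 4 Agilent arrays and scanned with Feature Extraction 10.7.3.1. Of the values deposited by the authors, the median signals of spots and of their background are intensity without correction, and the processed signals are intensity that the scanner software had background-subtracted and dye-normalized. The scanner files deposited by the authors also hold a ratio in log10. The authors' series table is in log2, palmitate over control, which was checked against the processed signals. The largest difference of a probe from the log2 ratio of those signals was 0.47.

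Median signals were background-corrected by normexp (offset 50), and dyes by loess (limma 3.58.1 with statmod 1.5.0 under R 4.3.3). Control spots and non-uniform spots (3 to 76 of 43020 gene spots per array) were left out, spots of a probe were averaged, and levels were set across arrays by Aquantile scaling. A probe was tested if flagged well above background on each of the 4 arrays in the palmitate channel, the control channel or both. The mean log2 ratio of a probe was set against 0 in limma's moderated test, which keeps the pairing of cultures by array, with Benjamini-Hochberg adjustment over all 24169 probes. The brightest probe stands for a gene. Probes were named through their RefSeq identifiers, which named 26055 of 39429. The share of probes above background limits the precision.

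The members and lists were chosen with earlier results of these data known. Genes named from lists were the first 3 tested in the written order and the 2 with the smallest unadjusted p. The result of 1 of them is not reported here. The main fit was run on simulated ratios with independent noise, with SDs taken without replicate 1. The simulation therefore cannot say how the fit deals with an array like that one. Alternatives changed the background correction, dye normalization, source of values, filters, test, pairing, variance model, choice of probe and arrays. A limit on variation that the methods name (coefficient of variation under 50% within a group) was run on signals before and, added after seeing the data, after scaling between arrays. Protein sequences were not used here.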

Additional observations from a re-analysis of the deposited data

Results flagged for a closer look

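The log2 ratio of Mef2c in replicate 3, 0.46, stood far from those of the other arrays, which were 0.03, 0.04 and 0.06. The gap to the nearest value was 0.934 of the whole range of the 4 arrays. Of the 39 probes of members and named genes, all but that of Chrna1, which lacked a value in replicate 2, were examined this way. Among those examined 1 was so placed, and chance places about 1 in 20 groups there. On this array the control culture was not well above background at the Mef2c probe (median signal 64, against 134.5 in the palmitate culture), and the Mef2c ratio from the processed signals was 2.31.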

How the results depend on the processing

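The count of member probes past an adjusted p of 0.05 was 0 with all arrays, 10 of 11 with no dye normalization, where 84.2% of all probes passed and the median log2 ratio of all probes was 0.99, and 0 to 1 with an array left out. It was 0 under the other alternatives, the fit with no replicate block among them. At an unadjusted p under 0.05 the pairing of cultures by array did change the calls (limma). With no block, p was 0.224 for the brighter Mef2a probe, 0.0911 for Myod1 and 0.0772 for the dimmer Mef2a probe, all under 0.05 with it. For Myf5 it was 0.0468, against 0.0742 with the block, and for Myog 0.0205, against 0.0122. At an adjusted p of 0.05 the processed signals and the authors' table called 13 probes of 24169 each, and 1 probe per gene 2 of 13712. The methods' t-test called 10, limma with no replicate block 15, and the methods' variation limit 1158 of 12616 before scaling and 2 of 23502 after it. Before scaling it kept 4 member probes, those of Myod1, Myf5, Myog and Six4. It called 2 partners, 2 inhibitors, 1 coactivator and 2 satellite cell genes.

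With median centring in place of loess, which moved the median of all probes to 0.18, Pax7 was at -0.04, the dimmer Mef2d probe at 0.04, Six5 at 0.07, Scx at 0.01, Id1 at 0.05, Id2 at 0.22, Id3 at 0.24, Ep300 at 0.08, Kat2b at 0.27, Des at 0.17 and Chrnd at 0.12. With the 75th percentile shift and the methods' t-test, the median of all probes was -0.10. There Mef2c was at -0.23, Pax7 at -0.32 and Msc, above that median, at -0.06. Without background correction the dimmer Mef2d probe was at 0.07 and Kat2b at 0.00, and Id3 was at 0.01 with the processed signals and in the authors' table. With no dye normalization the dimmer Mef2a and Mef2d probes were at 0.59 and 0.85, and Pax3 at 0.72, Six5 at 0.88, Scx at 0.82, Id1 at 0.86, Id2 at 1.03, Id3 at 1.05, Hes1 at 0.52, Ep300 at 0.89, Kat2b at 1.08, Mapk12 at 0.74, Des at 0.98, Chrnd at 0.93, Fst at 0.36 and Sdc4 at 0.65. With an array left out, Six4 lay between -0.03 (without replicate 1) and 0.16, the dimmer Mef2d probe between -0.11 and 0.07 (without replicate 2), Crebbp at -0.06 at the lowest (without replicate 1) and 0.17 at the highest, Kat2b between -0.13 and 0.09 (without replicate 1), Cdh15 between -0.07 (without replicate 1; -0.04 without replicate 3) and 0.09, Des between -0.25 and 0.02 (without replicate 4), and Itga7 between -0.04 (without replicate 4) and 0.14. Myod1, Myf5, Myog and the brighter Mef2a and Mef2d probes kept their sign under every alternative in which they were tested. The variation limit before scaling left out both of these Mef2 probes. With no dye normalization the median of all probes was 0.99, so a sign above 0 there says little. The alternatives use the same arrays and are not independent of each other. The causes were not tested.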
